A study of Mus musculus with 2 samples.

Results

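The genes described here encode the enzymes and partner proteins that write N6-methyladenosine (m6A) into RNA: Mettl3, Mettl14, Wtap, Virma, Zc3h13, Rbm15, Rbm15b, Cbll1 and Mettl16. They were chosen by name, as 9 of the 8262 named genes with a listed position in at least 1 of 2 direct RNA libraries. The values below are the deposited fractions modified (described below) at positions of their own transcripts. The libraries are replicates 1 and 2 of a single group, wild-type retinal organoids at day 6 grown from the mouse line Rx:GFP, a reporter line in which fluorescence marks activity of the eye-field gene Rax, with AGN at 0.1 µM for 6 days. Poly(A) RNA (1 µg a library) was read as native RNA with the RNA002 kit for about 48 h. The labels do not say whether the replicates came from separate cultures, so the spread between them may be technical. With 1 group there was no contrast between conditions, and an exact paired permutation test over 2 replicates cannot give a p-value under 0.5, so no test is given.

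m6A is made co-transcriptionally in the nucleus. METTL3 is the catalytic subunit and METTL14 its RNA-binding partner. WTAP holds this pair in nuclear speckles and links it to VIRMA, ZC3H13, the E3 ubiquitin ligase CBLL1 (Hakai), and the RNA-binding proteins RBM15 and RBM15B, which bring the complex to its target RNAs. METTL16 works outside that complex, on the U6 small nuclear RNA and on the mRNA of the methyl donor synthase MAT2A. In retinal development, where cells pass from the eye field to retinal progenitors, the study asks what METTL3 activity contributes.

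Each listed position carries a motif of 5 bases, a coverage (reads over the position) and a fraction modified (between 0 and 1). The motifs are printed because many positions below are named or compared by them. Of the 4 motifs, written in DNA letters, AGACT alone starts with A. The others start with G and differ in their last base: GGACA ends in A, GGACC in C and GGACT in T. Where motifs of 1 transcript lie close together, the distance between their positions gives the arrangement, with n for each base the tables do not hold. All 72 neighbouring listed positions of the whole tables under 5 nt apart were GGACA followed 4 nt later by AGACT, the only spacing at which these motifs can overlap, so positions mark the same base of each motif. The stretches below are those where writer sites with at least 20 reads in replicate 2 lie at most 23 nt apart. They are shown because their sites are the closest together, and the fractions of close sites, given below, were alike in some stretches and far apart in others. Capitals mark the central adenosine, the base that carries the methyl group in m6A.
Rbm15b, positions 1341 and 1364: ggActnnnnnnnnnnnnnnnnnnggAct
Rbm15b, positions 2083, 2099 and 2104: ggAccnnnnnnnnnnnggActggAcc
Rbm15b, positions 2521 and 2542: ggAccnnnnnnnnnnnnnnnnagAct
Virma, positions 5591 and 5601: ggAccnnnnnagAct
Wtap, positions 672 and 678: agActnagAct
Wtap, positions 1089 and 1096: agActnnggAct

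The tables list 26441 positions in replicate 1 and 50099 in replicate 2, with median coverage of 10 and 12 reads and none under 5. Of the eye-field and retinal progenitor markers examined, 7 of 7 were listed in replicate 2, against 0 of 6 markers of pluripotent cells, 0 of 3 of endoderm, 0 of 2 of neural crest, 1 of 3 of mesoderm (Kdr) and 1 of 2 of neurons (Tubb3). In replicate 1 these counts were 7, 0, 0, 0, 0 and 1. A gene without a listed position may be unexpressed, shallow or unmodified, and these cannot be told apart.

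The writer genes held 46 listed positions in replicate 1 and 110 in replicate 2, 119 in all, counted on each transcript. A position that recurs on a second transcript of a gene thus counts on both, here and over all genes. Aligned in this way were 10 positions of Wtap, 3 of Virma and 2 of Cbll1. Coverage there ran from 5 to 21 reads (median 14) in replicate 1 and from 5 to 49 (median 16) in replicate 2. All 9 genes were listed in replicate 2, and 6 in replicate 1, where Virma, Rbm15 and Cbll1 were missing. The RNA is from whole organoids, so few expressing cells and little RNA per cell cannot be told apart where a gene is shallow. Replicate 2 was taken as primary, and a site is a position with at least 20 reads in it. There were 37 sites in 5 genes: 22 in Rbm15b, 9 in Wtap, 4 in Virma and 1 each in Mettl3 and Mettl16. Mettl14, Zc3h13, Rbm15 and Cbll1 had none. At the edge of this minimum, 2 sites had exactly 20 reads, with fractions of 0.2 (Mettl3) and 0.0909 (Rbm15b), while 10 positions had 19 reads and fractions from 0 to 0.889.

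Rbm15b carried more sites than any other transcript of replicate 2. Its 22 sites on ENSMUST00000055843.8 stood above the 20 of the next transcript among 4510 with a site, where the median was 3 and 3.88% had 10 or more. The place at the top depended on the minimum. It held with at least 10 reads (27 positions) and not without a minimum, where 2 other transcripts had as many or more, nor with 30 reads, where 17 others did. In replicate 1 the same transcript had 18 listed positions, and 5 of 7067 other transcripts had at least as many. Transcript lengths were not used, and a long transcript can hold more motifs.

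**Figure D1:**
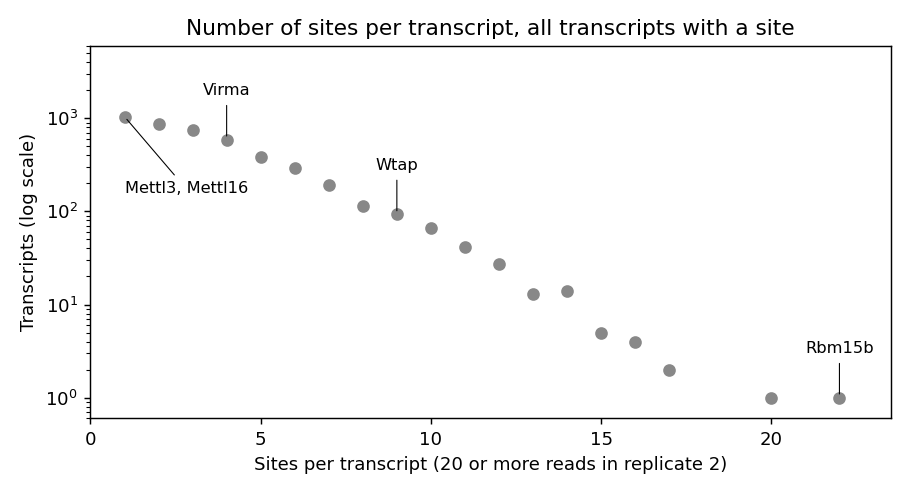
Number of transcripts (vertical axis, log scale) with each number of sites (horizontal axis; positions with 20 or more reads in replicate 2). Rbm15b lies at the far right with 22 sites, Wtap at 9 and Virma at 4, and Mettl3 and Mettl16 share the lowest class with 1 site.

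Of the 37 writer sites, 14 had a fraction of at least 0.5 in replicate 2 (37.8%), next to 37.5% of all 16212 sites. This share rested on Rbm15b, which held 11 of the 14: without it 3 of 15 sites (20%) reached 0.5. The median fraction was 0.2 (interquartile range 0.105 to 0.667), against 0.345 (0.15 to 0.673) over all sites. The direction of this difference depended on the minimum: over all listed positions the writer median was 0.348 and that of all genes 0.333. The mix of motifs also differed. GGACA, the motif with the highest median over all sites, made up 7 of the 37 writer sites (18.9%) but 35.6% of all sites. Within GGACA the writer median was 0.562 and that of all sites 0.667. It was 0.171 against 0.263 at AGACT (11 sites), 0.163 against 0.231 at GGACC (12 sites) and 0.682 against 0.230 at GGACT (7 sites). The GGACT sites were split into 4 with at least 0.682 and 3 with at most 0.194, so their median stands for neither. These differences also depended on the minimum. Over all listed positions the writer median was 0.725 against 0.667 at GGACA and 0.286 against 0.25 at AGACT, both now the higher, and 0.2 against 0.222 at GGACT, now the lower, while at GGACC it stayed lower (0.163 against 0.25).

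GGACA stood above the other 3 motifs pooled, though not above GGACT alone at the 7 sites of each. Its median exceeded that of the other 3 motifs together by 0.372 in replicate 2 over all 37 sites (0.429 over all sites of the tables). At the sites listed in both libraries the gap was 0.407 in replicate 1 and 0.421 in replicate 2. Over all listed positions of replicate 2, 45 of 110 writer positions reached 0.5 (40.1% of all). Among them 24 of 30 writer GGACA positions had a fraction of 0.5 or more (66.0% of all GGACA positions did), against 21 of 80 at the other motifs (26.7% of all such positions). Positions that recur on a second transcript are counted on each in these numbers.

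**Figure D2:**
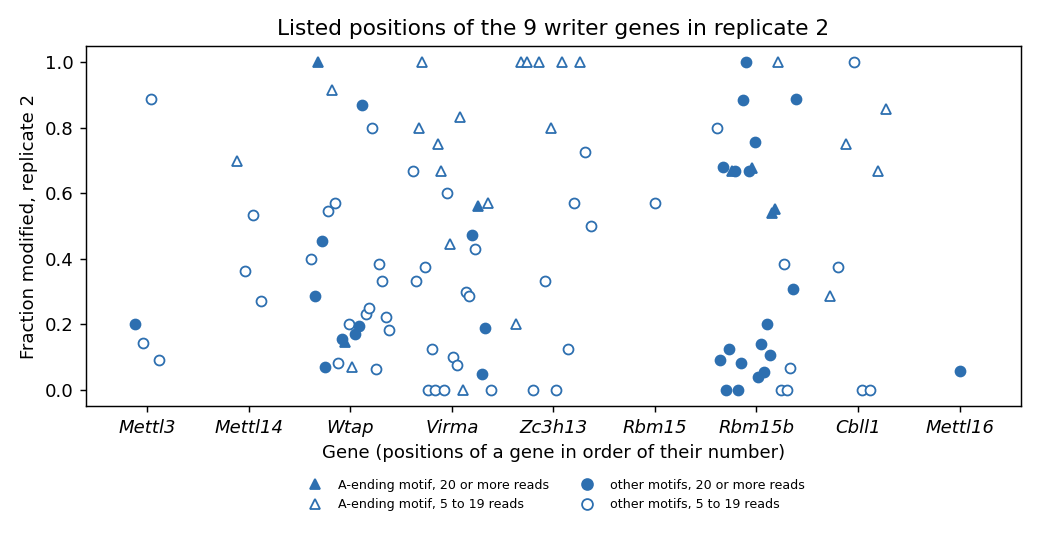
Fraction modified in replicate 2 (vertical axis) at every listed position of the 9 genes (horizontal axis); triangles mark the A-ending motif and circles the other motifs, filled with 20 or more reads and open with 5 to 19. Filled symbols appear in Mettl3, Wtap, Virma, Rbm15b and Mettl16 only, and 24 of the 30 triangles lie at 0.5 or above.

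The catalytic pair had 1 site between them. Mettl3 (chromosome 14, 52532298 to 52542585; gene coordinates throughout are the deposited ones, whose build is not named) had 5 listed positions in replicate 1, at 8 to 14 reads, and 4 in replicate 2, at 19 to 20 reads. Its single site, the GGACC at position 656 of ENSMUST00000022767.15, was at 0.286 in replicate 1 (10 reads) and at 0.2 in replicate 2 (20 reads), or 0.243 ± 0.0606 (SD, n = 2). The GGACT at position 1947, also in both libraries, had 0.273 over 14 reads and 0.0909 over 19. Both positions were thus low in each library. The highest value of the gene was at the AGACT of position 1711, with 0.889 over 19 reads in replicate 2. It was not listed in replicate 1, although the flanking positions 656 and 1947 had 10 and 14 reads there. Mettl14 (chromosome 3, 123161946 to 123179757) stayed below 20 reads everywhere. Its deepest positions were the AGACT at 1685, with 0.5 over 6 reads in replicate 1 and 0.533 over 17 in replicate 2, and the GGACT at 1774, with 0.25 over 6 and 0.273 over 17. The order of these positions was the same in both libraries. The GGACA at 663 had 0.7 over 14 reads in replicate 2 alone.

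Wtap (chromosome 17, 13185683 to 13213056), the scaffold of the complex, was the deepest of the writer genes, at up to 21 reads in replicate 1 and 49 in replicate 2. It was listed on 4 transcripts, and all 9 of its sites lay on ENSMUST00000159986.7. The GGACA at position 644 had a fraction of 1 in both libraries, over 17 and 48 reads. The GGACT at position 1156, the only writer site with at least 20 reads in each library, had 0.929 over 21 reads and 0.871 over 49 reads, or 0.900 ± 0.0407 (SD, n = 2). Apart from these 2, no Wtap site exceeded 0.455 in replicate 2. The lowest was the AGACT at 678, with 0.333 over 17 reads in replicate 1 and 0.0714 over 48 in replicate 2. The other positions with 49 reads, 1089 and 1096, had 0.25 and 0.231 in replicate 1 and 0.171 and 0.194 in replicate 2, so these neighbours, 7 nt apart, differed by 0.023 in replicate 2 and were as close in replicate 1. Over the 8 Wtap sites listed in both, the mean fraction was 0.413 in replicate 1 and 0.401 in replicate 2, or 0.407 ± 0.00852 (SD, n = 2).

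Neighbouring writer sites differed by little in some pairs and by much in others. Pairs were taken between neighbouring positions listed in either library, with at least 20 reads at both in replicate 2. Rbm15b 2474 and 2521 (0.139 and 0.0541 in replicate 2) were thus not a pair, since 2494, listed in replicate 1 alone, lies between them. Of 14 such pairs at most 50 nt apart, 8 had a gap under 0.2 in replicate 2. Over all transcripts, 34.8% of 1874 pairs of neighbouring sites within 50 nt did. A gap over 0.5 was found in 4, and in 29.1% over all transcripts. Among these 14 pairs the largest gap in replicate 2 was in Wtap, between the AGACT at 605 and the GGACA at 644, where the fraction went from 0.286 to 1, a gap of 0.714; it was the same in replicate 1, where other pairs had larger gaps. From 644 to the AGACT at 672 it went down again, by 0.833 in replicate 1 and by 0.545 in replicate 2. The nearest Wtap pair, AGACT at 672 and 678, showed no stable order: 0.167 and 0.333 in replicate 1, 0.455 and 0.0714 in replicate 2.

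A second Wtap transcript, ENSMUST00000160781.7, shared the highest sites of the first. All 10 listed positions of ENSMUST00000159986.7 recurred there with the same motif exactly 122 nt further on, and 2 more were listed. The counterpart of position 644 had a fraction of 0.929 in replicate 1 and 0.917 in replicate 2, over 15 reads each. The counterpart of position 1156 had 1 over 17 reads and 0.8 over 19 reads. Both positions were thus high on each transcript. The counterparts of 605 and 672 also reached 0.5 in replicate 2, with 0.545 and 0.571, where ENSMUST00000159986.7 had 0.286 and 0.455. The transcripts differed by a median of 0.0567 over 8 positions in replicate 1 and 0.071 over 9 positions in replicate 2. The largest differences were 0.458 at position 672 in replicate 1 and 0.26 at position 605 in replicate 2, in each case with the higher value on ENSMUST00000160781.7. How reads that fit both transcripts were assigned is not stated, so these values may not be independent. On this transcript the AGACT pair at 672 and 678 kept 1 order, with 0.625 and 0 in replicate 1 and 0.571 and 0.0833 in replicate 2.

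**Figure D3:**
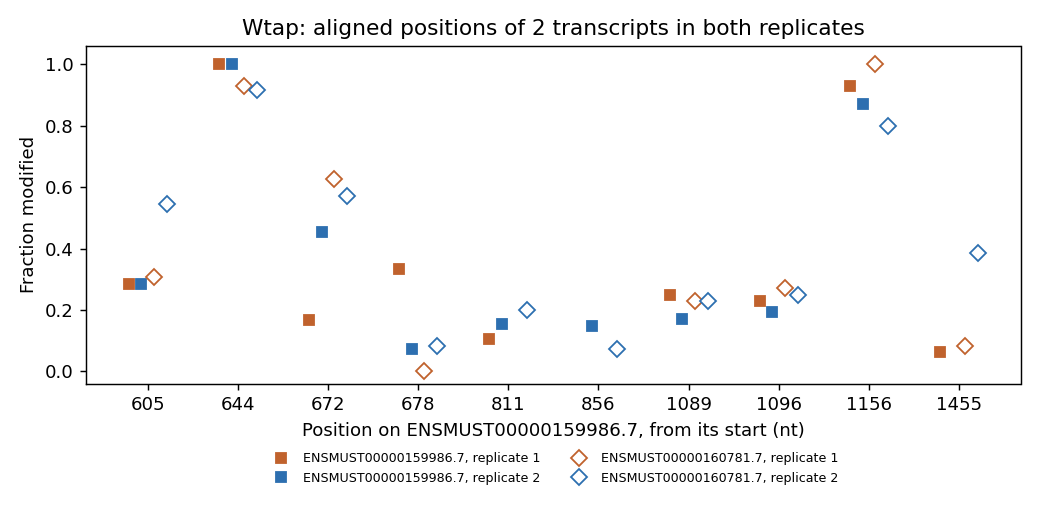
Fraction modified (vertical axis) at the 10 aligned Wtap positions, numbered on ENSMUST00000159986.7 (horizontal axis); filled squares are that transcript, open diamonds ENSMUST00000160781.7, with replicate 1 in orange and replicate 2 in blue. Positions 644 and 1156 lie at 0.8 or above in all 4 series, and position 672 is the most scattered, from 0.167 to 0.625.

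The reads were divided over the transcripts differently in each library. Coverage of ENSMUST00000159986.7 was 2.33 to 2.82 times as high in replicate 2 as in replicate 1 at 8 positions, and that of ENSMUST00000160781.7 was 1 to 1.12 times as high. The median ratio over all 18756 positions listed in both libraries was 2.12 (interquartile range 1.64 to 2.75).

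Virma (chromosome 4, 11485958 to 11550684), a large scaffold that guides the complex toward 3′ untranslated regions and stop codons, was listed in replicate 2 only, at 26 positions on 2 transcripts. Its 4 sites lay within 181 nt of ENSMUST00000059914.12 and had 23 reads each. The fraction was 0.474 at the GGACC of 5420, 0.562 at the GGACA of 5567, 0.05 at the GGACC of 5591 and 0.188 at the AGACT of 5601. The last 2, separated by 10 nt in the sequence above, were both low, and the GGACA 24 nt before them was 0.512 higher than the nearer one. On ENSMUST00000108307.2, 3 of these positions recurred 65 nt further on over 12 reads, with 0.429, 0.571 and 0, a median of 0.0451 from their counterparts. Of the 9 Virma positions at GGACA, 7 had a fraction of 0.5 or more over 9 to 23 reads, where 66.0% of all listed GGACA positions did; 5567 and its counterpart are both counted.

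Zc3h13 (chromosome 14, 75521813 to 75581866), which keeps the complex in the nucleus, had 14 listed positions in replicate 2 and 1 in replicate 1. Coverage climbed along ENSMUST00000022577.5 from 7 reads at position 3311 to 18 at position 6077. Native RNA strands enter the pore with their 3′ end first. Of 7 positions at GGACA, 6 had 0.5 or more in replicate 2 (66.0% of all listed GGACA positions did). The deepest position, the GGACC at 6077, had 0.25 over 5 reads in replicate 1 and 0.5 over 18 in replicate 2. Cbll1 (chromosome 12, 31534828 to 31549615) was listed in replicate 2 at 8 positions of 5 to 9 reads, the deepest being the GGACA at 1249 with 0.75 and the GGACC at 1297 with 1. Its positions 3524 and 3803 recurred on a second transcript, 62 nt nearer the start, with 0 on both and with 0.857 and 0.667. At such coverage a few reads set the fraction.

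Rbm15 and Rbm15b, related proteins that bind RNA and recruit the complex, stood at opposite ends of the list. Rbm15 (chromosome 3, 107232737 to 107240989) had 1 listed position, the GGACC at 3510 with 0.571 over 8 reads in replicate 2. Rbm15b (chromosome 9, 106758117 to 106764627) had 28 positions in replicate 2 and 18 in replicate 1, of which 16 were shared. Its fractions spanned the whole scale. The GGACT at 2099 had 1 in both libraries, over 11 and 30 reads. The GGACT at 1364 had 0 in both, over 6 and 26 reads, and the GGACC at 1786 had 0 over 27 reads in replicate 2 alone. The deepest, the GGACA at 3116, had 0.5 over 18 reads and 0.552 over 47 reads, or 0.526 ± 0.0366 (SD, n = 2). Over the 16 shared sites the mean was 0.466 in replicate 1 and 0.399 in replicate 2, or 0.432 ± 0.0473 (SD, n = 2), which did not differ from the mean of Wtap by more than the spread of Rbm15b.

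By motif, all 4 GGACA sites of Rbm15b lay between 0.538 and 0.679, and all 5 AGACT sites between 0.0833 and 0.308. Over all genes, 64.1% of GGACA sites and 24.1% of AGACT sites had 0.5 or more in replicate 2. Its 9 GGACC sites ran from 0 to 0.885. Of its 10 listed GGACC positions, 4 were at 0.5 or more, where 27.5% of all listed GGACC positions were. Its 4 GGACT sites had 0, 0.682, 0.889 and 1, where 23.2% of all GGACT sites had 0.5 or more. The ranges of these 4 GGACA and 5 AGACT sites did not overlap, although below 20 reads the AGACT at 485 had 0.8 over 7 reads. Sites of the 2 other motifs were found at both ends of the scale. Whether this transcript departs from what its motifs give in all genes was not tested.

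The longest runs of Rbm15b sites at 0.5 or more and under 0.5 in replicate 2, picked after their values were seen, lay one after the other and are given as a description. The 5 sites from 2083 to 2302 had fractions of 0.667 to 1 in replicate 2, over 30 to 36 reads, and the 4 of them listed in replicate 1 had 0.714 to 1, over 11 to 12 reads. The 5 sites from 2386 to 2581 had 0.04 to 0.2 in replicate 2, over 38 to 42 reads, and 0.0769 to 0.25 in replicate 1, over 12 to 14 reads. The choice of runs fixed their separation in replicate 2. That they did not overlap in replicate 1 says that these sites had like values in both libraries, and not that high or low sites gather. The second run holds 3 AGACT sites and the first none. The pair at 2521 and 2542, inside the second run, was low at both, with 0.0833 and 0.154 in replicate 1 and 0.0541 and 0.2 in replicate 2. The neighbours 2099 and 2104, whose motifs touch in the sequence above, had 1 and 0.833 in replicate 1 and 1 and 0.667 in replicate 2. The GGACC at 2083, before them, had 0.818 and 0.885. The GGACT pair at 1341 and 1364, 23 nt apart and of the same motif, was at 1 and 0 in replicate 1 (6 reads) and at 0.682 and 0 in replicate 2 (26 reads).

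**Figure D4:**
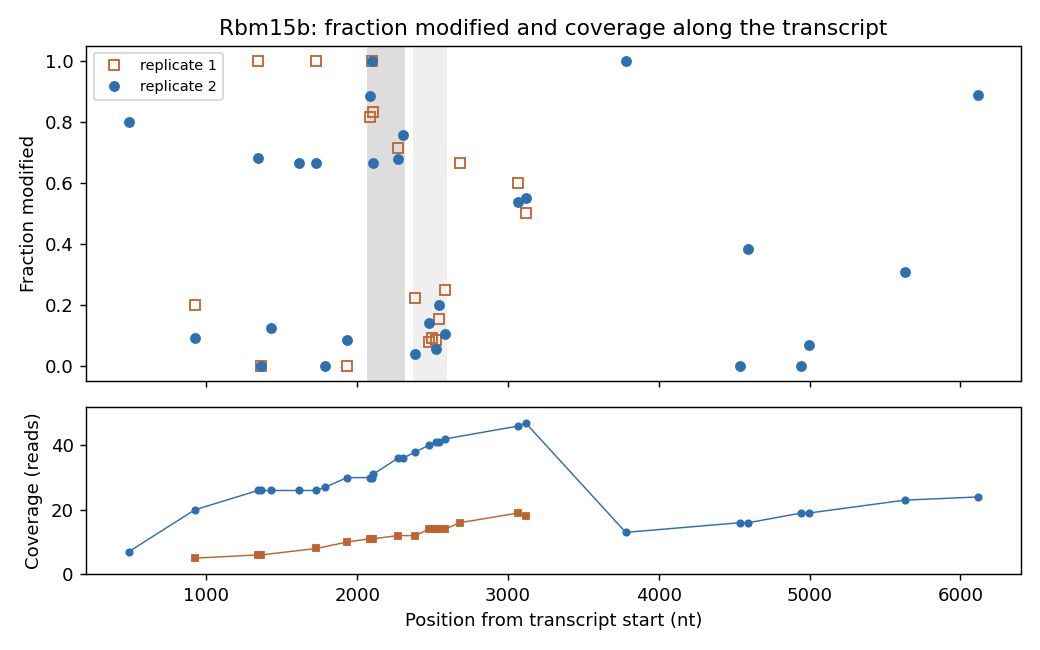
Upper panel, fraction modified (vertical axis) along the Rbm15b transcript (horizontal axis, nt from its start) in replicate 1 (open squares) and replicate 2 (filled circles), with the runs from 2083 to 2302 (dark grey) and 2386 to 2581 (light grey); lower panel, coverage in reads. All points in the dark band lie at 0.667 or above and all in the light band at 0.25 or below, and coverage in replicate 2 falls from 47 to 13 reads after position 3116.

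Coverage of Rbm15b had a break. In replicate 2 it rose from 7 reads at position 485 to 47 at position 3116, was 13 at the next listed position, 3781, and rose again to 24 at 6117. It thus fell to 0.277 of its value across 1 interval, where 17.0% of 440 transcripts with 10 or more listed positions and at least 20 reads at 1 of them had a fall to 0.5 or less. Virma, the other writer transcript in that class, had none. In replicate 1 coverage reached 19 reads, and no position after 3116 was listed. The 7 positions after the break, seen in replicate 2 alone, had fractions from 0 to 1, with 0.308 at the AGACT of 5631 and 0.889 at the GGACT of 6117, the only 2 with at least 20 reads.

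Mettl16 (chromosome 11, 74661656 to 74719351), the methyltransferase outside the complex, was listed at different positions in the libraries. Replicate 1 had the GGACT at 344 and 351 with 0.1 and 0.375 and the GGACA at 452 with 0.667, each over 11 reads. Replicate 2 had the AGACT at 1531 alone, with 0.0588 over 24 reads. No comparison between libraries was possible for this gene.

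Replicates were then compared at the 25 sites listed in both, which lie in Rbm15b (16), Wtap (8) and Mettl3 (1). These are 67.6% of the 37 sites, against 74.8% of all sites. Coverage was 5 to 21 reads in replicate 1 and 20 to 49 in replicate 2. Replicate 2 gave the higher value at 7 of them, the lower at 14 and the same at 4, with a median difference (replicate 2 minus replicate 1) of -0.0357, and of -0.0007 over all 12121 sites listed in both. The median absolute difference was 0.062. It exceeded 0.2 at 4 sites, or 16%, where 15.7% of all sites did, and 22.9% of the 6791 sites in the same ranges of coverage. The root mean square difference was 0.142, against 0.153 over all sites and 0.183 in those ranges. Pearson's r was 0.926 and Spearman's rho 0.839 across the 25 sites, which share 3 transcripts and their reads and are not independent. The 4 sites were Rbm15b 1341 and 1728, at 1 in replicate 1 (6 and 8 reads) and at 0.682 and 0.667 in replicate 2 (26 reads), and the AGACT pair of Wtap at 672 and 678. Both Rbm15b values were lower in replicate 2, and those of the Wtap pair differed in opposite directions.

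**Figure D5:**
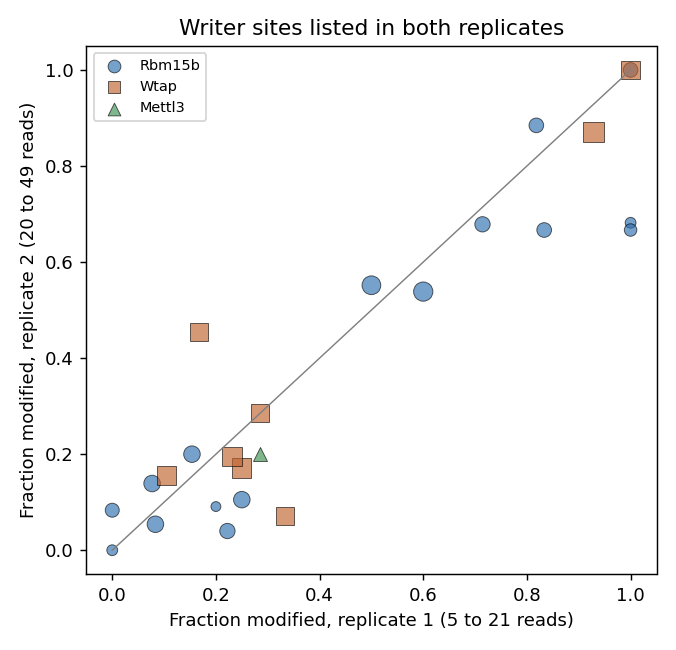
Fraction modified in replicate 1 (horizontal axis) and replicate 2 (vertical axis) at the 25 writer sites listed in both; the area of a symbol grows with the reads in replicate 1 and the line marks equality. Most sites lie along the line, with Rbm15b 1341 and 1728 below it at the right edge and Wtap 672 and 678 to either side of it at the left.

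Other genes of RNA adenosine methylation, taken by function (further methyltransferases, readers, erasers and methyl donor synthesis), were counted in the same way. Of 19 such genes, 17 were listed in replicate 2 and 14 in replicate 1, Mettl4 and Ythdc2 in neither, and 14 had a site. Their 70 sites had a median fraction of 0.333 in replicate 2, next to 0.345 over all sites. Of them 25 (35.7%) had 0.5 or more, next to 37.5% of all sites. The readers Ythdf2 (14 sites), Ythdf1 (9) and Hnrnpa2b1 (9) had the most sites. Those of Hnrnpa2b1 were spread over 4 transcripts, with at most 4 on 1 of them. On a single transcript Fto had 7, Igf2bp2 6 and Igf2bp3 5. Ythdf2, which sends methylated mRNA to decay, had all 14 in both libraries with a mean of 0.453 ± 0.0155 (SD, n = 2), and its paralog Ythdf1 had 0.449 ± 0.00860 over 8 shared sites (SD, n = 2). Over those of these genes with a site in both libraries the means ran from 0.309 (Igf2bp3) to 0.807 (Igf2bp1), a range that holds the means of Rbm15b and Wtap.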

How the data were processed

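Per the labels' protocols, poly(A) RNA of 2 organoid libraries was sequenced as native RNA. For each library the authors deposited a plus and a minus table. Per the file headers, the coverage is a count of reads over a position and the fraction modified a fraction between 0 and 1. Its denominator is not given: only 15 of 46 writer fractions in replicate 1 and 31 of 110 in replicate 2 times the coverage give a whole number of reads (tolerance 5e-05 of the fraction), so no counts of modified reads and no intervals were derived. The base caller, aligner and modification caller are not given in the sources used here, nor is whether some unmodified positions were left out. A fraction of 0 alone did not remove a position, since 523 of the 16212 sites of replicate 2 are listed with 0. The submitters' processing notes name mm10, but 1 of 9 writer genes has a deposited start within 1000 bases of its start in RefSeq's GRCm38.p6, so the deposited coordinates were kept as they are. The minus tables hold 0 positions of these genes.

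Positions (1-based, the listed interval's end) were matched on transcript with version and end with pandas 2.3.3, and figures drawn with matplotlib 3.10.9. Named are all 9 genes, all sites of genes with at most 4, otherwise the highest, lowest and deepest and any with 20 reads in each library, and for genes without a site the deepest position. Other positions were chosen after their values were seen. The genes, the lists and the minimum of 20 reads were chosen with earlier results of these data known. Joins, shifts between transcripts and coverage falls were tested on simulated data. Alternatives were other minimums, 1 transcript per gene, matching within 5 nt and single replicates. Of the cell type markers chosen, 1 gene of the eye-field list is not reported here and is left out of that count.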

Additional observations from a re-analysis of the deposited data

How the results depend on the processing

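The minimum on coverage moved most of these results, and depth limits each single fraction. Without a minimum there were 110 writer sites in place of 37, 45 in place of 14 had a fraction of 0.5 or more, the median was 0.348 in place of 0.2, and GGACA stood 0.498 above the other motifs. With at least 10 reads in both replicates the median was 0.268 and that gap 0.479. With at least 20 reads in both, 1 site was left, listed in both, with a fraction of 0.871, so 1 had 0.5 or more. With at least 50 reads in replicate 2 there were 0 sites, 0 in both and 0 of 0.5 or more, and no fraction could be given. These counts follow from the minimum itself; for the medians and gaps the cause was not tested. With 1 replicate alone the site count ran from 2 to 37, those of 0.5 or more from 1 to 14 and the median from 0.2 to 0.496; the gap of GGACA was 0.372 in replicate 2, and replicate 1 held no GGACA site of 20 reads. 1 transcript per gene left the counts of sites, of sites in both replicates and of sites of 0.5 or more as they were, and matching within 5 nt left 25 sites in both. The mean fraction of Wtap (0.407) was 0.429 without a minimum and with 10 reads in both replicates, and 0.900 with 20 reads in both, where 1 site was left. Transcripts with at least as many sites as Rbm15b, itself included, numbered 1, and 3 without a minimum, 18 with 30 reads, 16 with 10 reads in both replicates and 6 in replicate 1 with no minimum, since Rbm15b had no position of 20 reads there. The writer median minus that of all sites (-0.145) was -0.0922 with 10 reads in both replicates and reversed to 0.0152 without a minimum, to 0.509 with 20 reads in both and to 0.143 in replicate 1 alone, the last 2 over 1 and 2 writer sites. Without Rbm15b there were 15 sites, 3 of them of 0.5 or more. The settings of these last 3 sentences, and those for the runs of Rbm15b, were chosen after seeing the data. Of 65 alternative values, 26 moved and 3 reversed, that is, changed sign. A count was called moved past a fixed ratio, and a median, mean or gap past its SD over the 2 replicates. That SD was 0.0606 for the writer median and 0.00852 for the Wtap mean. The difference between replicates was set against its SD over sites, 0.136. These limits are unlike, so the tally does not measure how stable the results are. No paired analysis was possible because the samples form 1 group.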

Other observations

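Whether a position was listed did not follow coverage alone. The AGACT at 2494 and the GGACC at 2681 of Rbm15b were listed in replicate 1, with fractions of 0.0909 over 14 reads and 0.667 over 16 reads. In replicate 2 neither was listed, although the positions on either side had 40 and 41 reads and 42 and 46 reads. Of 30 writer positions of replicate 1 that lay between listed positions of at least 10 reads in replicate 2, these 2 were missing there, where 24.2% of all such positions were. In the other direction 7 of 30 were missing (18.4% of all): position 856 and the counterparts of 811 and 856 on the second transcript of Wtap, position 1469 of that transcript, 2302 of Rbm15b and 1638 and 1711 of Mettl3. Their fractions ran from 0.0625 to 0.889.

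Below 20 reads, close positions with far apart values were also listed. In Zc3h13, the GGACA at 4538 and 4556 were at 1 in replicate 2 (8 reads), and the AGACT between them at 4550 had 0 over the same number. In Virma, the GGACT at 2371 had 0 and the AGACT 11 nt further on had 0.6, over 16 reads each. None of these positions was listed in replicate 1, so they have no replicate.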
